A study of Mus musculus with 6 samples.

Results

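Receptors for GABA, glycine, acetylcholine and glutamate were examined in neurospheres with and without overexpression of Bmi1, a Polycomb group protein that represses transcription. The set held every gene whose only annotated probe set symbol begins with Gabra, Gabrb, Gabrg, Gabrd, Gabbr, Glra, Glrb or Chrn, or is Grm followed by a number, and 40 of 19938 measured genes met this rule. These were 10 subunits of the GABA-A receptor, 2 of the GABA-B receptor, 5 of the glycine receptor, 16 of nicotinic acetylcholine receptors and 7 metabotropic glutamate receptors. Gabrb2 alone had several probe sets, and it was represented by the brightest on average.

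The RNA came from neurospheres, floating spheres grown with EGF and FGF from neural stem/progenitor cells of the lateral ventricle wall of CD1 mice aged 4 to 6 weeks. Both groups carried a pCMMP retroviral vector with eGFP and were sorted on eGFP: the empty vector group (n = 3 arrays) had no further insert, and the Bmi1 overexpression group (n = 3 arrays) had a Bmi1 insert, named without a FLAG tag in the sample labels and with one in the text of the study. The design entry calls the cultures independent, but no source names separate mice, so p-values reflect only how much these arrays differ from each other. The source entry of all 6 arrays names the opposite group, and title, transduction and genotype entries were followed instead. The column headings of the study's own table of these arrays, matched by array name, give the same groups as the titles. The Bmi1 probe set did not separate the groups (log2 difference 0.52, 95% confidence interval -0.16 to 1.19, adjusted p = 0.38 from limma), so it checks the labels in neither direction. Of 9 neural stem and progenitor markers measured, Sox2, Nes, Vim and Fabp7 read between 9.59 and 12.32 on every array, and Prom1, the CD133 gene, rose by 1.58 from 3.86 ± 0.16 to 5.44 ± 0.28 (SD, n = 3 each, limma adjusted p = 0.00418). The other 8 did not pass, and of these Msi1 and Pax6 read between 6.42 and 6.97. Of the 9 differences 5 were positive and 4 negative, with a median of 0.01. Every Bmi1 array was higher for 4 of the 9, Prom1 among them, and lower for 2, Egfr (-0.14) and Olig2 (-0.19). The mean over the 9, which includes the rise of Prom1, lay at 9.09 to 9.12 with the empty vector and 9.27 to 9.36 with Bmi1. Markers of microglia, averaged over 6 genes, lay between 3.06 and 3.20 on the 6 arrays, and those of endothelium, over 5 genes, between 4.01 and 4.14.

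GABA-A and glycine receptors are pentameric chloride channels, and the alpha, beta and gamma composition of a GABA-A receptor sets where it sits and how it responds to drugs. Nicotinic receptors are cation channels of the same superfamily, whereas GABA-B and metabotropic glutamate receptors are G protein-coupled and act as dimers. In the wall of the lateral ventricle, GABA released by neuroblasts acts on GABA-A receptors of the stem cells and is known to restrain their division, and mGluR5 is a receptor of progenitors and astrocytes.

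In Bmi1-overexpressing neurospheres, Gabra2, Grm5 and Gabrg1 fell and no receptor gene rose. Gabra2 encodes the alpha 2 subunit and Gabrg1 the gamma 1 subunit of GABA-A receptors, and Grm5 encodes mGluR5. Their levels were 2.1-fold, 1.38-fold and 1.25-fold lower. The remaining 37 genes did not pass the test, among them Gabbr1, whose difference was as large as that of Gabra2 but in the opposite direction. Here and below, fell and rose mean an adjusted p under 0.05 in the linear model of limma, adjusted by Benjamini-Hochberg for the 35557 probe sets, and values are RMA expression on the log2 scale, where 1 unit is a doubling. Of all probe sets, 3.46% fell, 2.23% rose and 5.7% passed in either direction, and of 19938 genes with 1 probe set each, 4.37% fell and 2.98% rose, against 7.5% of the 40 receptor genes that fell, a share resting on 3 genes. At an unadjusted p under 0.05, 6 of the 40 receptor genes were lower and 3 higher, against 11.9% and 10.8% of all genes. The median difference of the 40 genes was -0.01 and that of all genes 0.01. RNA of whole cultures cannot tell fewer cells of a type from less RNA per cell.

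Some markers of glial and neuronal cells also passed the test, as did 4.37% of all genes that fell and 2.98% that rose. Of 7 astrocyte markers 2 rose, Gja1 and Aqp4, and 5 of the 7 differences were positive. Slc1a3 and S100b went the other way, by -0.31 and -0.38, without passing (adjusted p = 0.102 and 0.247 from limma). The mean over the list was 7.27 to 7.39 with the empty vector and 7.49 to 7.72 with Bmi1. Of 5 oligodendrocyte precursor markers 2 rose, Pdgfra and Gpr17, and the mean was 6.19 to 6.30 against 6.73 to 6.97. Of 8 neuron markers Dcx rose and Map2 fell, and the mean was 5.29 to 5.38 against 5.34 to 5.45. Of 4 mature oligodendrocyte markers 0 passed, and the mean was 5.18 to 5.30 against 5.39 to 5.48. RMA values do not reach 0 for genes that are not expressed, so they do not show which markers are absent. The part of cell composition in the differences of Gabra2, Grm5 and Gabrg1 was not tested.

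**Figure D1:**
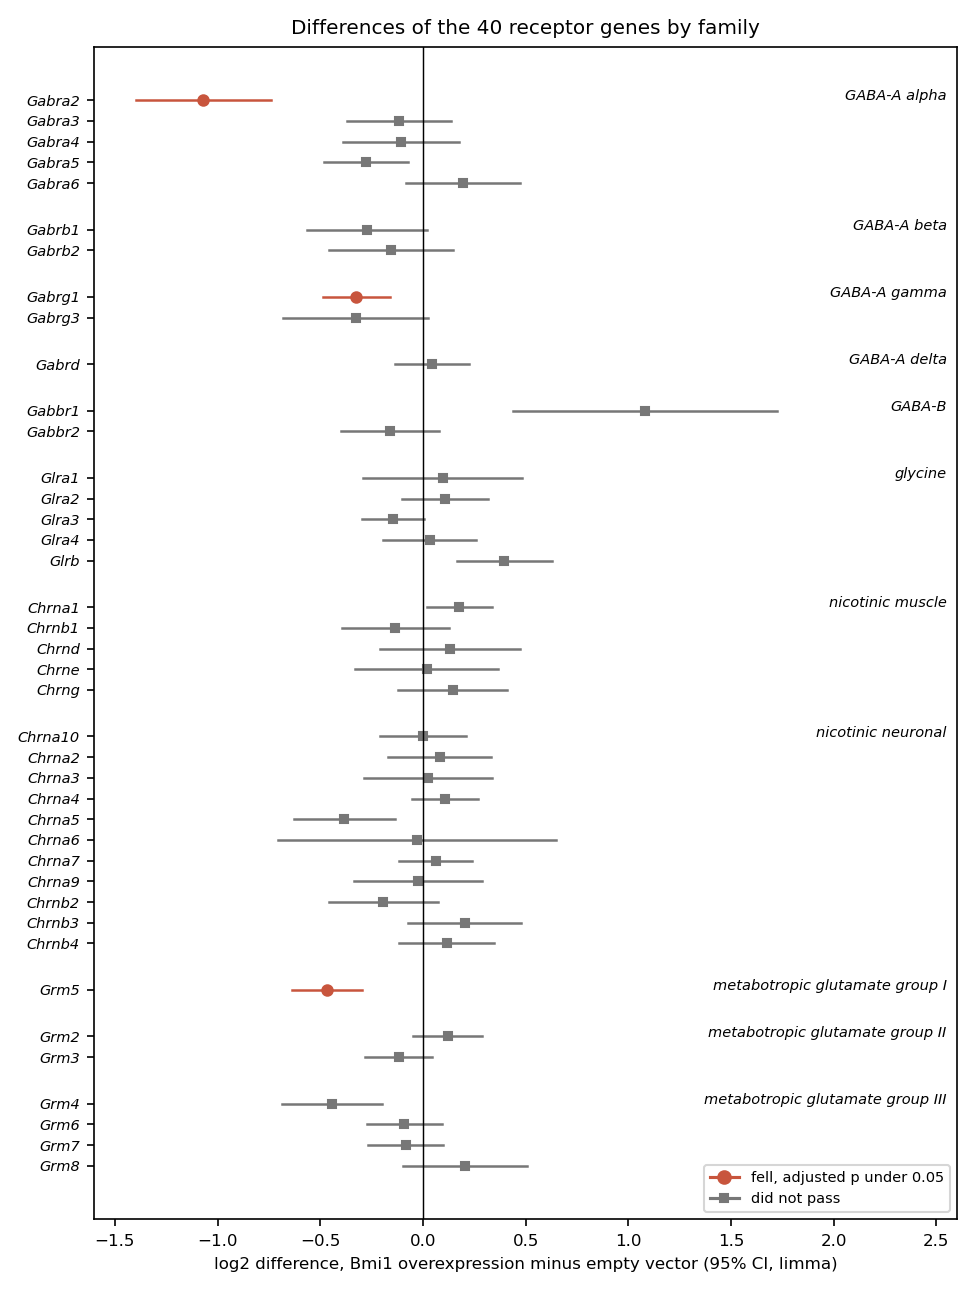
Log2 difference of Bmi1 overexpression minus empty vector (x axis) for the 40 receptor genes (y axis), grouped by family, with 95% confidence intervals from limma (3 arrays per group). Circles mark Gabra2, Gabrg1 and Grm5, which fell; Gabbr1 at 1.08 has an interval of 0.44 to 1.72, and its groups do not overlap.

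Gabra2 and Gabrg1 are direct neighbours among the measured genes of chromosome 5, in a GABA-A cluster that also holds Gabra4 and Gabrb1. The sequences before the transcription starts of these neighbours differ in their content of CpG dinucleotides, which cluster in CpG islands. They are printed below for the 2 genes that fell and for Gabra4, as 250 bases upstream of the RefSeq start (build GRCm38.p6, all on the minus strand, 5′ to 3′), with each CG in capitals. Gabra2 lies at chr5:71095850-71096099, Gabrg1 at chr5:70842618-70842867 and Gabra4 at chr5:71658309-71658558.
Gabra2: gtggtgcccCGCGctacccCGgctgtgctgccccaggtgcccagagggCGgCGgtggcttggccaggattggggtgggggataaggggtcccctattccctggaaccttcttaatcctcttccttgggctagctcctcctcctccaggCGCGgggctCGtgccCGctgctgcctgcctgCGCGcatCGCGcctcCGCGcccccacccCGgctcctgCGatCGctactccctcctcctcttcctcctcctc
Gabrg1: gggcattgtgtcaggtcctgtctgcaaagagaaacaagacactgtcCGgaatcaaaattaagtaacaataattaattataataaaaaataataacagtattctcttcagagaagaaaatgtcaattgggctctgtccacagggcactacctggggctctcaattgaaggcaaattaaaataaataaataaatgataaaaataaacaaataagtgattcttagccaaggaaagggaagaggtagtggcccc
Gabra4: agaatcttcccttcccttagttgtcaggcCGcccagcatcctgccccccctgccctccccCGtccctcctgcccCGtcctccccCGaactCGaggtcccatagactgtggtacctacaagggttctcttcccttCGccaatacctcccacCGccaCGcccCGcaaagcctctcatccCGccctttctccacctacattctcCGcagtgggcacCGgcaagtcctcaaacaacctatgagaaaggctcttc
The window of Gabra2 holds 18 CG at 70.0% G and C, that of Gabra4 12 at 61.2%, and that of Gabrg1 1 at 35.6%. Gabrb1, on the plus strand, has 1 window with 18 CG at 64.4%, as many as Gabra2, and another with 6 at 50.8%, and it did not pass the test. Gabra2 and Gabrg1 differ in both CpG number and base composition in this window. Sequence downstream of the start was not counted, and a link between CpG content and the calls was not tested. Over all 32851 windows of the table the median was 6 CG (quartiles 2 and 16), and 92.1% held at least 1. The 40 windows matched to 32 receptor genes had a median of 8, and 95% held at least 1. Chrna2, Chrna6, Chrnb3, Chrnd, Gabrd, Glra1, Grm4 and Grm5 were not matched. CG reads the same on both strands, and the motif was counted as a description only.

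Of the 5 GABA-A alpha subunits, Gabra2 fell and 4 did not pass the test. Gabra2 (probe set 10530406) read 6.13, 6.46 and 6.28 with the empty vector and 5.05, 5.16 and 5.45 with Bmi1. The highest Bmi1 value was under the lowest empty vector value, with a gap larger than the range within either group. Means were 6.29 ± 0.17 and 5.22 ± 0.21 (SD, n = 3 each), and limma put the log2 difference at -1.07 ± 0.14 (standard error) with adjusted p = 0.00859. The call held whichever of the 6 arrays was left out, with differences from -1.19 to -0.98. For 1 gene, permuting 3 arrays against 3 exactly allows no p below 0.1.

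Gabra5, the alpha 5 subunit known from extrasynaptic receptors, read 4.11, 4.08 and 4.06 with the empty vector and 3.79, 3.94 and 3.68 with Bmi1. Its groups did not overlap either, but the log2 difference of -0.28 did not pass (adjusted p = 0.132 from limma). Gabra4 read 5.73, 6.08 and 6.10 against 5.92, 5.78 and 5.89, so that the groups overlapped, with a log2 difference of -0.11 (95% confidence interval -0.39 to 0.18). Gabra3 and Gabra6 had log2 differences of -0.12 and 0.19 and overlapped as well.

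Of the 2 gamma subunits measured, Gabrg1 fell. Gabrg1 (probe set 10530393) read 8.24, 8.22 and 8.11 with the empty vector and 7.83, 7.88 and 7.87 with Bmi1. The Bmi1 arrays were lower throughout, by a small amount that exceeded the spread of either group. Means were 8.19 ± 0.07 and 7.86 ± 0.03 (SD, n = 3 each), and limma put the log2 difference at -0.32 ± 0.07 (standard error) with adjusted p = 0.0485. This call sits at the threshold and was lost whichever array was left out, with adjusted p of 0.0811 to 0.156 from limma.

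Gabrg3, the gamma 3 subunit gene next to Gabra5 on chromosome 7, had the same difference of -0.33 with wider spread. It read 4.81, 4.62 and 5.06 with the empty vector and 4.71, 4.34 and 4.46 with Bmi1, and the groups overlapped (adjusted p = 0.288 from limma).

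The beta subunits, which pair with alpha to form the GABA binding site, did not pass the test. Gabrb1 read 2.87, 3.23 and 2.83 against 2.74, 2.74 and 2.63, without overlap, and differed by -0.27 (limma, adjusted p = 0.281). Gabrb2 had a difference of -0.16 for its brightest probe set (adjusted p = 0.568 from limma), in which the groups overlapped. Its other probe sets, with means of 2.35 or lower, had differences of -0.34 and -0.43, and the latter passed (adjusted p = 0.0307 from limma). The probe sets of Gabrb2 therefore disagree on the call but not on the sign. Gabrd, the delta subunit of extrasynaptic receptors, had a difference of 0.04 (95% confidence interval -0.14 to 0.22), and its sign turned after median centring (-0.01) and quantile normalization (-0.01). Over the 10 GABA-A genes the median difference was -0.22 against 0.01 over all genes, and 8 of 10 values were negative against 46.9% of all genes. Of the 10, 8 did not pass and 6 overlapped between the groups. Of all 19938 genes, 18473 did not pass and 13700 overlapped.

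**Figure D2:**
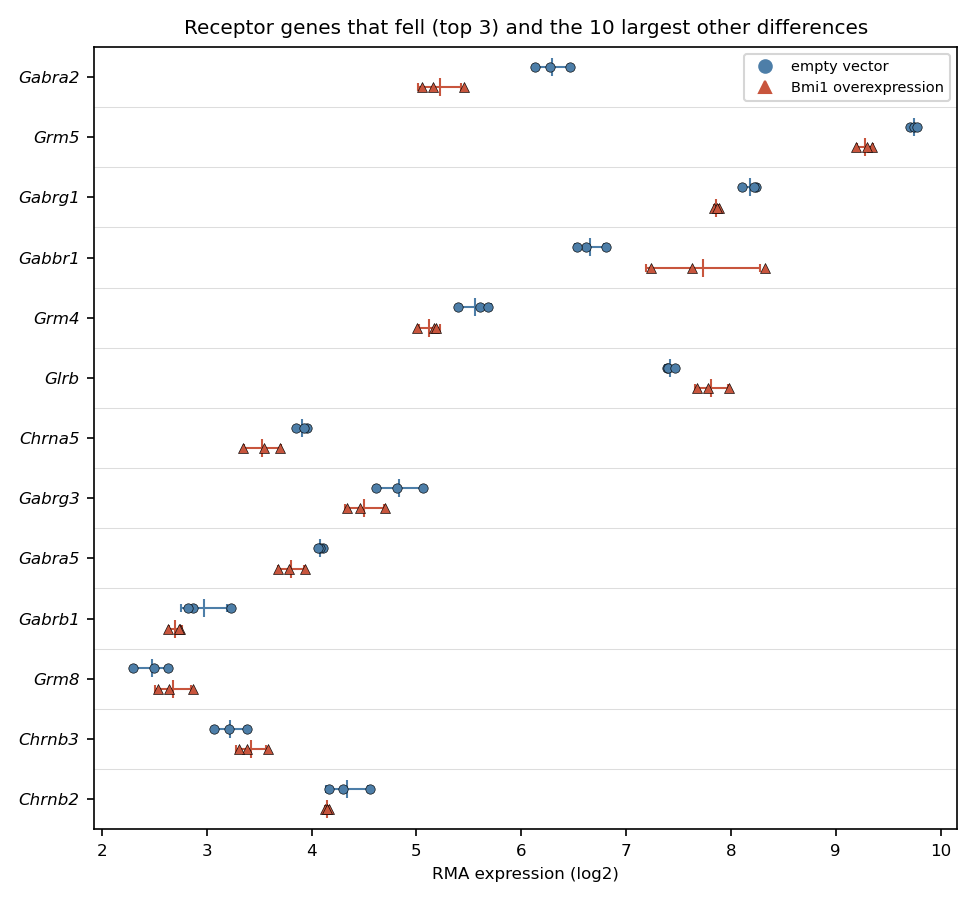
Log2 RMA expression (x axis) of the 3 receptor genes that fell (top) and of the 10 others with the largest differences (y axis), with 1 point per array and the mean and SD of 3 arrays as bars. Gabra2, Grm5 and Gabrg1 do not overlap between the groups, and the Bmi1 arrays of Gabbr1 spread from 7.24 to 8.32.

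On chromosome 5 the order of measured genes was Gabrg1, Gabra2, Cox7b2, Gabra4 and Gabrb1. The 4 receptor genes had log2 differences of -0.32, -1.07, -0.11 and -0.27 in that order. Cox7b2, a cytochrome oxidase subunit gene between Gabra2 and Gabra4, had a difference of 0.12 (adjusted p = 0.571 from limma). The 4 measured genes on each side were added after the values of the receptor genes were known. Of these 8, Gnpda2, a glucosamine phosphate deaminase gene next to Gabrg1, went from 6.30 ± 0.07 to 5.83 ± 0.16 (SD, n = 3 each) without passing the test (adjusted p = 0.0512 from limma). The other 7 had differences from -0.09 to 0.19 and did not pass.

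**Figure D3:**
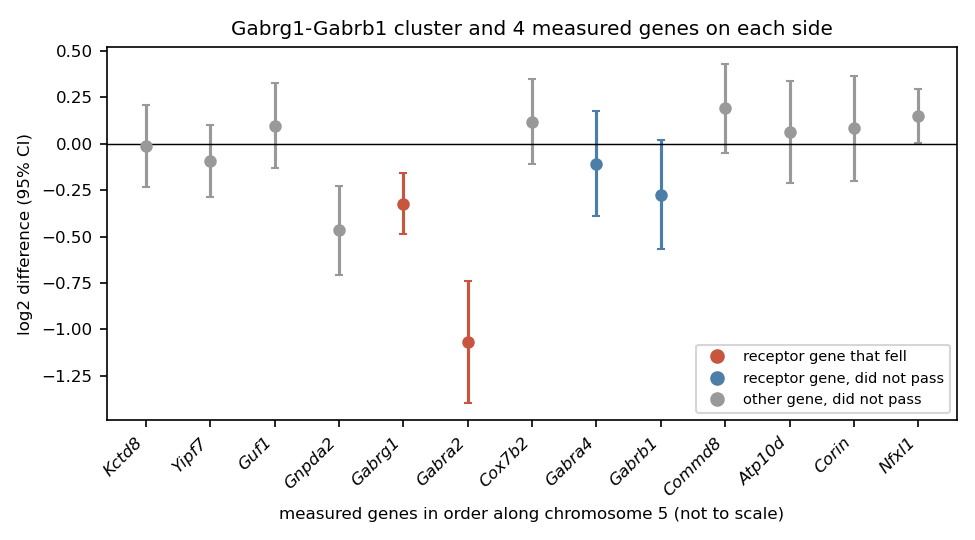
Log2 difference of Bmi1 overexpression minus empty vector (y axis, with 95% confidence intervals from limma, 3 arrays per group) for the measured genes in their order along chromosome 5 (x axis, not to scale). Gabra2 at -1.07 and Gabrg1 at -0.32 lie beside each other, and Gnpda2 at -0.47 on the other side of Gabrg1 did not pass.

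Receptor genes of the other clusters did not pass the test. On chromosome 9, Chrna5, Chrna3 and Chrnb4 had differences of -0.38, 0.02 and 0.11. On the X chromosome, Gabra3 lies between Gabre and Gabrq, which had differences of -0.14 and 0.13. The subunits outside the rule, Gabre, Gabrp, Gabrq and Gabrr1 to Gabrr3, ranged from -0.14 to 0.18, and 0 of 6 passed (limma, smallest adjusted p = 0.296).

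The GABA-B receptor is a dimer of the product of Gabbr1, which binds GABA, and that of Gabbr2, which couples to the G protein. Gabbr1 (probe set 10445078) read 6.62, 6.53 and 6.81 with the empty vector and 7.24, 7.63 and 8.32 with Bmi1. Every Bmi1 array was above every empty vector array, but the Bmi1 arrays differed among themselves by more than 1 unit. The means were 6.65 ± 0.14 and 7.73 ± 0.55 (SD, n = 3 each), a log2 difference of 1.08 (95% confidence interval 0.44 to 1.72, adjusted p = 0.0771 from limma). The call was gained without Bmi1 replicate 1 (1.33, adjusted p = 0.0495 from limma) and in 4 of the alternatives with all arrays, so Gabbr1 stands close to the threshold.
Gabbr2 read 6.49, 6.73 and 6.51 with the empty vector and 6.30, 6.44 and 6.51 with Bmi1. These values overlapped, and the difference was -0.16 (adjusted p = 0.448 from limma). Whether the difference of Gabbr1 departs from that of Gabbr2 was not tested.

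Of 12 auxiliary and effector genes of GABA-B signalling, Gnao1 fell, none rose and 11 did not pass. Over all genes 4.37% fell and 2.98% rose. Gnao1, the G protein subunit alpha o, went from 7.80 ± 0.05 to 7.44 ± 0.09 (SD, n = 3 each). Its call (limma, adjusted p = 0.0484) was lost whichever array was left out. The median difference of the 12 was -0.04.

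Of the glycine receptor genes, none of 5 passed the test. Glrb, the beta subunit that binds the anchoring protein gephyrin, read 7.39, 7.40 and 7.47 with the empty vector and 7.67, 7.78 and 7.99 with Bmi1. The groups did not overlap, and the log2 difference was 0.40 (95% confidence interval 0.16 to 0.63, adjusted p = 0.0735 from limma). The alpha subunit genes Glra1 to Glra4, which carry the ligand site, read between 1.80 and 3.10 on all arrays, with differences from -0.15 to 0.11.
Among 19 measured genes of GABA-A and glycine receptor anchoring and trafficking, 3 fell, 1 rose and 15 did not pass. Over all genes 4.37% fell and 2.98% rose. Gphn, which encodes gephyrin, read 8.23, 8.22 and 8.37 with the empty vector and 7.49, 7.79 and 7.57 with Bmi1. The Bmi1 arrays were lower throughout (log2 difference -0.66, adjusted p = 0.0161 from limma), a call lost in 5 of 6 fits with 1 array left out. Plcl1, a phospholipase C-related protein that binds GABA-A receptors, went from 6.81 ± 0.14 to 5.79 ± 0.08 (SD, n = 3 each). Its log2 difference of -1.02 (adjusted p = 0.00307 from limma) held in each of those 6 fits. The Plcl1 probe set is in the list the study chose on these arrays, where it has no gene symbol, and is not independent evidence. Clptm1, which retains GABA-A subunits in the endoplasmic reticulum, fell by 0.32. Hap1, which takes part in recycling of GABA-A receptors, rose by 0.59. With 1 array left out the call of Clptm1 was lost in 6 of 6 fits and that of Hap1 in 4. The median of the 19 was -0.02.

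None of the 16 nicotinic genes passed the test (limma), and 2 of them had an unadjusted p under 0.05. The methods' test could call none of them, because it asks for a difference of at least 1. Their differences ranged from -0.38 to 0.20, with a median of 0.04. The 5 muscle-type genes, Chrna1, Chrnb1, Chrnd, Chrne and Chrng, had differences from -0.13 to 0.18. Chrna1 was higher on every Bmi1 array by a difference of 0.18 (adjusted p = 0.201 from limma). Of 6 skeletal muscle markers 0 passed, and their mean lay at 4.57 to 4.61 with the empty vector and 4.54 to 4.76 with Bmi1.
Among the 11 neuronal-type genes, Chrna4, a partner of Chrnb2 in the main brain receptor, read 7.31, 7.23 and 7.32 with the empty vector and 7.39, 7.34 and 7.44 with Bmi1. The groups did not overlap, yet the difference was only 0.11 (95% confidence interval -0.05 to 0.27). Chrnb2 read 4.17, 4.56 and 4.30 against 4.17, 4.13 and 4.15, a difference of -0.19 with adjusted p = 0.401 from limma. Chrna5, an accessory subunit, read 3.85, 3.96 and 3.93 against 3.55, 3.35 and 3.70. It had the largest difference of the nicotinic genes, -0.38 (adjusted p = 0.0965 from limma). Chrna7, which forms receptors on its own, had a difference of 0.06 (95% confidence interval -0.12 to 0.24). Chrna6 was the most variable, from 1.96 to 2.92 with overlap of the groups, and Chrnb3, its neighbour on chromosome 8, had a difference of 0.20.

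Of 17 chaperone, modulator and cholinergic enzyme genes measured that act beside nicotinic receptors, 4 fell, 1 rose and 12 did not pass, with a median of -0.04. Over all genes 4.37% fell and 2.98% rose, and the difference between this list and the subunits was not tested. Ache, the acetylcholinesterase gene, read 5.68, 6.21 and 5.93 with the empty vector and 4.65, 4.43 and 4.07 with Bmi1. The lowest empty vector array was about 1 unit above the highest Bmi1 array, and limma put the difference at -1.55 ± 0.19 (standard error) with adjusted p = 0.00755. Bche, encoding butyrylcholinesterase, went from 8.04 ± 0.04 to 6.98 ± 0.10 (SD, n = 3 each). Lynx1, a membrane-anchored brake on nicotinic receptors, had means of 6.37 ± 0.09 and 4.91 ± 0.25, and fell by 1.47 (limma, adjusted p = 0.00281). Ly6e, another protein of the Ly6 family, fell by 1.17. Lypd1, also of this family, rose by 0.57 and was named after its value was seen. The falls of Ache, Bche, Lynx1 and Ly6e held in all 6 fits with 1 array left out. Bche, Lynx1 and Ly6e are in the list the study chose on these arrays and are not independent evidence. Chat, which makes acetylcholine, read between 3.09 and 3.51 on all arrays, with a difference of 0.01.

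Of the 7 metabotropic glutamate receptor genes, Grm5 fell and 6 did not pass. Grm5 (probe set 10554778), a group I receptor that couples to phospholipase C, read 9.70, 9.75 and 9.78 with the empty vector and 9.19, 9.34 and 9.30 with Bmi1. The groups were apart by more than the spread of either. Means were 9.74 ± 0.04 and 9.28 ± 0.08 (SD, n = 3 each), and limma put the log2 difference at -0.47 ± 0.07 (standard error) with adjusted p = 0.0161. With 1 array left out the difference stayed between -0.50 and -0.42, but the call was kept only without Bmi1 replicate 2, and without the others adjusted p was 0.0522 to 0.07 from limma.
The group II receptors, which lower cyclic AMP, differed by small amounts in opposite directions. Grm3, known from astrocytes, read 8.44, 8.40 and 8.30 against 8.25, 8.29 and 8.25, a difference of -0.12 (95% confidence interval -0.28 to 0.05). Grm2 read 5.38, 5.27 and 5.22 against 5.40, 5.41 and 5.43, a difference of 0.12 (95% confidence interval -0.05 to 0.29). For both genes the groups did not overlap, and neither passed (adjusted p = 0.407 and 0.419 from limma).
Of group III, Grm4 read 5.60, 5.40 and 5.69 with the empty vector and 5.01, 5.17 and 5.19 with Bmi1. All Bmi1 arrays were lower, and the log2 difference of -0.44 did not pass (adjusted p = 0.0618 from limma). The call was gained in 5 of 18 alternatives, so Grm4 also stands close to the threshold. Grm6, Grm7 and Grm8 had differences of -0.09, -0.09 and 0.20 and overlapped between the groups.

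Of 18 measured scaffold and signalling genes of metabotropic receptors, 3 rose, none fell and 15 did not pass, with a median of -0.06. The shares over all genes were 2.98% that rose and 4.37% that fell. Homer2, whose protein ties group I receptors to intracellular calcium channels, read 5.66, 5.36 and 5.69 with the empty vector and 6.63, 6.65 and 6.57 with Bmi1. It rose by 1.05 (adjusted p = 0.00357 from limma) while Grm5 fell. Its paralogue Homer1 went from 7.56 ± 0.12 to 7.16 ± 0.09 (SD, n = 3 each) without passing (adjusted p = 0.0622 from limma), and Homer3 had a difference of -0.05. Elfn1, a synaptic adhesion protein that binds metabotropic receptors, rose by 1.11, and Grasp, a scaffold of group I receptors, by 0.39. The rise of Grasp was lost in each fit with 1 array left out. Homer2 and Elfn1 are in the list the study chose on these arrays.

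Of 21 measured genes of GABA and glycine synthesis, uptake and breakdown, 3 rose, 2 fell and 16 did not pass, with a median of 0.08. The shares over all genes were 2.98% that rose and 4.37% that fell. Gad1, which makes GABA from glutamate, read 6.13, 6.22 and 6.34 with the empty vector and 6.80, 6.77 and 6.90 with Bmi1, a rise of 0.59 (adjusted p = 0.0112 from limma) that just missed the threshold without empty vector replicate 2 (limma, adjusted p = 0.0541). Aldh5a1, the last enzyme of GABA breakdown, rose by 0.46, a call lost in 4 of the 6 fits with 1 array left out, whereas Abat, the GABA transaminase, differed by -0.53 without passing (limma, adjusted p = 0.0879). Slc6a9, the glycine transporter GlyT1, read 8.27, 8.06 and 8.10 against 8.92, 9.25 and 9.23, a rise of 0.99 (adjusted p = 0.00679 from limma). Amt, of the glycine cleavage system, fell by 0.59, and Glul, glutamine synthetase, fell by 0.37 and was named after its value was seen. Slc6a11, the GABA transporter GAT3, read between 11.01 and 11.38 on all arrays with overlap of the groups.

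**Figure D4:**
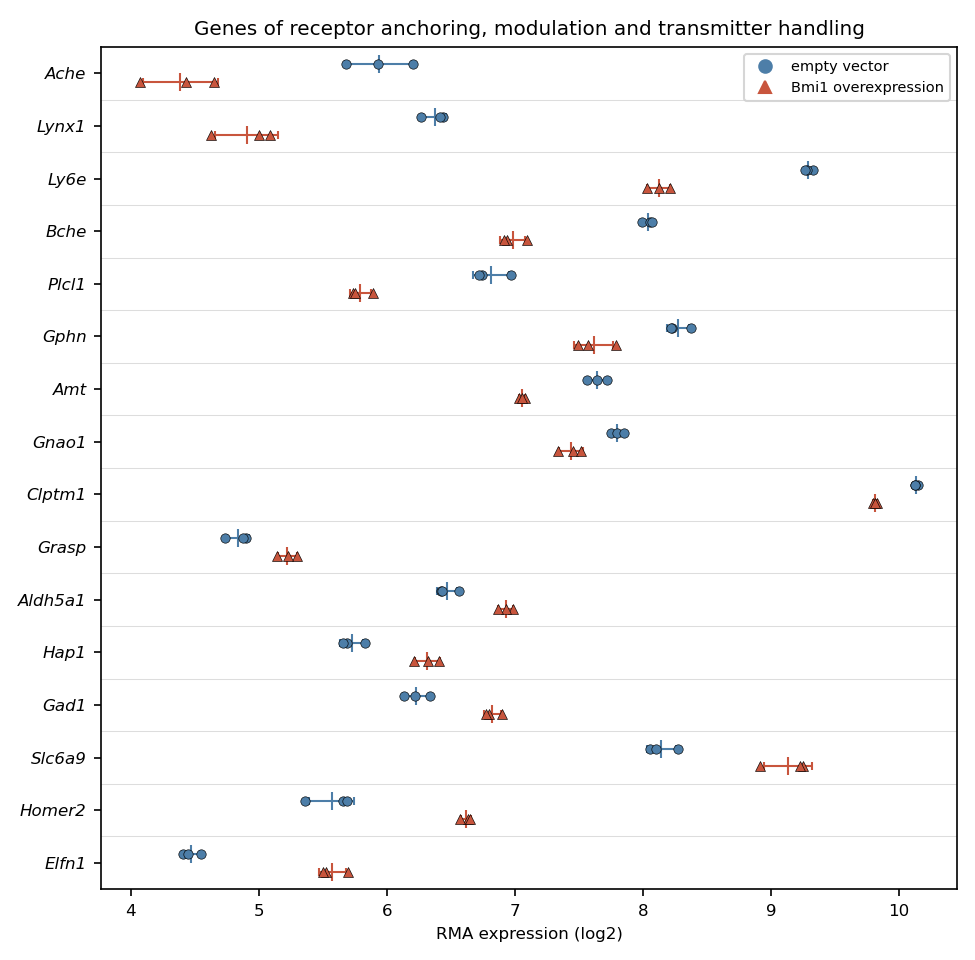
Log2 RMA expression (x axis) of 16 genes of receptor anchoring, modulation and transmitter handling that passed the test (y axis, ordered by difference), with 1 point per array and the mean and SD of 3 arrays as bars. Ache and Lynx1 have the largest falls, Homer2 and Elfn1 the largest rises, and each gene has separate groups.

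Across the 40 receptor genes, 9 had every Bmi1 value below the lowest empty vector value, 5 had every Bmi1 value above the highest, and 26 overlapped. This was 22.5% lower and 12.5% higher, against 15.9% and 15.3% of all genes with 1 probe set each, and 12.9% and 13.8% of all probe sets. The lower ones were Gabra2, Gabra5, Gabrb1, Gabrg1, Glra3, Chrna5, Grm3, Grm4 and Grm5, and the higher ones Gabbr1, Glrb, Chrna1, Chrna4 and Grm2. Of the 40 genes, 25 had a mean over all arrays below 4.42, the mean of the array medians. The deposited table holds no detection calls, and RMA compresses the changes of such dim probe sets, so small differences there do not show equal levels.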

How the data were processed

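Each of the 6 samples was hybridized to 1 Affymetrix Mouse Gene ST 1.0 array. Per the labels, the authors made log2 values by RMA in Affymetrix Expression Console. The sources used here give no version and no library file. The deposited log2 values (35557 probe sets, array medians 4.37 to 4.45) were used as given. Correlations between arrays were 0.991 to 0.993 within and 0.985 to 0.987 between groups. The platform annotation names a single gene for 21789 probe sets and more than 1 for 1621, whose genes stayed unnamed, and all 40 receptor symbols matched RefSeq of GRCm38.p6.

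The test was limma 3.58.1 under R 4.3.3 (lmFit, eBayes, two-sided, no filter, Benjamini-Hochberg over all probe sets). The script was tested on simulated data. Each gene was represented by its brightest probe set on average. Members and gene lists were chosen with earlier results of these data known. Of 101 listed pathway genes, 93 had a probe set of their own. Genes named were members past the test, the 10 next largest differences, the highest of each family, cluster members, and up to 4 passing genes per list with the smallest adjusted p. Lypd1, Glul, Abat, Homer1, Homer3, Chat and Slc6a11 were chosen for naming with their values known, outside this rule and without alternatives. Alternatives were the methods' t-test, a Welch version of it, filters (mean 5 and mean 6), a single probe set per gene, the mean of probe sets, scalings, variance priors, array weights, a replicate block and each array left out. Clusters joined genes at most 1 Mb apart by their RefSeq start and end positions. Precision is limited by 3 arrays per group. Figures were drawn with matplotlib 3.10.9.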

Additional observations from a re-analysis of the deposited data

How the results depend on the processing

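The fall of Gabra2 kept its side of the threshold in 15 of 18 alternatives, that of Grm5 in 11 of 19 and that of Gabrg1 in 8 of 19, and none of these differences changed sign. In place of 3 receptor genes that fell and 0 that rose, the methods' t-test (p below 0.001, difference 1 or more) called 0 and 0, the Welch t-test 0 and 0, and Benjamini-Hochberg over 1 probe set per gene 5 and 2. Receptor genes that rose numbered 2 with a filter at a mean of 5, 2 with a filter at 6, 2 with eBayes trend and 1 after quantile normalization. These were Gabbr1 and Glrb, and after quantile normalization Glrb. With 1 array left out, 1 to 2 fell and 0 to 1 rose: Gabra2 each time, Grm5 without Bmi1 replicate 2, and Gabbr1, which rose, without Bmi1 replicate 1. With the replicate number as a block 1 fell, Gabra2. Same-numbered arrays had correlations of their deviations of 0.00, -0.03 and -0.02, and the other pairs of -0.02 to 0.04. These values show no pairing by number, but with 3 arrays per group they cannot exclude it.

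Of the genes on the 6 pathway lists, 10 fell and 8 rose, against 4 and 2 with the methods' t-test at its own thresholds, 1 and 1 with the Welch t-test, 17 and 13 with a filter at a mean of 5, 17 and 12 with a filter at 6, 17 and 13 with 1 probe set per gene, 16 and 13 with eBayes trend, 6 and 3 with the replicate block, and 6 to 7 and 3 to 7 with 1 array left out. The difference of Gabrd changed sign after median centring (-0.0086) and quantile normalization (-0.0136). Over all probe sets, 1231 fell and 794 rose, and 1467 and 593 after median centring, which moved the median of all probe sets from 0.02 to -0.03. The filters at 5 and 6 left 11 and 7 of the 40 receptor genes. The cause of the other changes in calls was not tested.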
